A study of Mus musculus with 12 samples.

Results

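Baseline gene expression was described in the 4 control libraries of a series of 12 RNA sequencing libraries made from uterine tissue of mice at 13.5 days post coitum. The members were chosen by their labels alone, as the count columns of mice with the genotype Myh11Cre, and replicates 1 to 4 are named as the labels number them. Myh11Cre is a Cre recombinase transgene driven by the promoter of the smooth muscle myosin heavy chain gene, which is active in smooth muscle cells of the uterine wall and of blood vessels, and the control label gives no other allele. The other 8 libraries, 4 labelled PGR-A OE (Myh11Cre; LSLPGRA/+) and 4 labelled PGR-B OE (Myh11Cre; LSLPGRB/+), share the driver and the gestational day and were not used here. With 1 group there was no comparison and no test, and every statement rests on the levels of genes and on their spread between the 4 libraries. The labels do not say whether each library came from a separate animal or from pooled tissue, so part of that spread may be technical.

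In mid-pregnancy the uterine wall holds the myometrium, its smooth muscle layer, together with stroma, vessels, leukocytes and an epithelial lining with glands. The myometrium is held quiet for most of pregnancy while progesterone acts through its receptor, and contraction is set by calcium entry and release, by phosphorylation of myosin light chains and by gap junctions that couple the cells. Agonists such as oxytocin, prostaglandins and endothelin raise calcium through phospholipase C, whereas receptors that raise cyclic AMP or cyclic GMP favour relaxation.

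The 4 libraries held between 31872534 and 32436456 gene counts, so depth differed little. Of 24964 genes in the table, 13802 had a mean of at least 1 CPM (the count scaled to 1000000 gene counts in the library), 4056 reached 50 CPM, 81 reached 1000 CPM and 5371 had no count in any control library. No pair of libraries held the same counts. Replicate 4 stood apart: 259 genes lay at least 2-fold above the median of the other libraries there and 55 at least 2-fold below, against 11 to 37 above and 20 to 25 below in replicates 1 to 3. Across genes, Pearson's r of log2 levels was between 0.966 and 0.971 for pairs with replicate 4 and between 0.988 and 0.991 for the other pairs, a description over genes that are not independent. Replicate 1 held more counts of the ribosomal RNA precursor Rn45s than the others, at 36.6 CPM against 7.25 to 9.85 CPM. Most means that replicate 4 moved by over 10% are therefore given also without it.

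The labelled tissue is uterine tissue, and the labels do not say which part of the uterus was taken. The most abundant transcripts were not those of muscle. The highest level belonged to Prap1, a secreted proline-rich acidic protein made by epithelia, followed by C3, the central complement component, and Ctsb, the lysosomal protease cathepsin B. Type I and type III collagen chains came next. The 10 genes with the most counts took 15.5, 13.6, 12.7 and 10.1% of all counts in replicates 1 to 4 (12.99% ± 2.25, SD, n = 4), and the top 100 took from 27.1 to 31.5%. In homogenized tissue, a larger share of a cell type and more RNA of a gene per cell cannot be told apart.

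Prap1 was counted at 39695, 32475, 28048 and 22485 CPM in replicates 1 to 4. It led in every library, and its level in replicate 1 was the highest and in replicate 4 the lowest. C3 was at 23703, 19683, 18052 and 11217 CPM, in the same order of replicates. Ctsb was at 22209.9, 16178, 13551 and 4040.4 CPM, so that replicate 4 held far less than the others, and its mean was 13995 ± 7562 CPM with that library and 17313 ± 4439.8 CPM without it. Guca2b, which encodes the intestinal peptide uroguanylin, a ligand of guanylyl cyclase C, was at 11834, 9170.0, 9336 and 4425 CPM, again lowest in replicate 4.

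Collagen and elongation factor genes differed less between libraries. Col1a1, Col1a2 and Col3a1, the chains of fibrillar collagens of connective tissue, had 11569 ± 941, 10464 ± 748 and 10448 ± 388 CPM. Ctla2a, an inhibitor of cathepsin-like proteases, had 10143 ± 570.3 CPM, and Eef1a1, a translation elongation factor, 8403 ± 479 CPM. Csf1, the macrophage colony-stimulating factor, was at 8368, 8052, 6798 and 6349.5 CPM, and Spp1, the matrix protein osteopontin, was at 5225, 6408, 7549 and 8310.3 CPM. Csf1 was lowest and Spp1 highest in replicate 4, although both varied less than Ctsb. Gpx3 (a secreted glutathione peroxidase), Sparc (a matrix glycoprotein), Tgfb2 (a transforming growth factor) and Abcb1b (a drug efflux transporter) completed the 15 genes with the most counts, at 6491 ± 1031, 6484 ± 253, 6389.8 ± 1360.2 and 4479 ± 979 CPM. Tgfb2 and Abcb1b had SDs of log2 CPM of 0.34 and 0.35, near the 0.35 of Prap1, against 0.05 for Col3a1.

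Levels of different genes were compared per kilobase, as CPM divided by the length that the table gives for each gene in kilobases, because a longer transcript yields more reads. On that scale Prap1 stood at 49318 ± 11689 CPM per kilobase and Guca2b at 14485 ± 5157 (16856 ± 2488 without replicate 4), and the ranges of the pair over the 4 libraries did not overlap. Ctla2a (7276 ± 409 CPM per kilobase), Eef1a1 (4697 ± 268), Spp1 (4145 ± 813) and Gpx3 (4012 ± 637) followed. Akr1b7, an aldo-keto reductase, Tpt1, the translationally controlled tumour protein, and Napsa, the aspartic protease napsin A, entered the top 15 on this scale at 2929 ± 991, 2119 ± 125 and 1938 ± 212 CPM per kilobase. The exons of Prap1 overlap those of Fuom and the exons of Ctsb those of Fdft1 in the annotation, so their counts are uncertain to the extent that reads were shared.

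**Figure D1:**
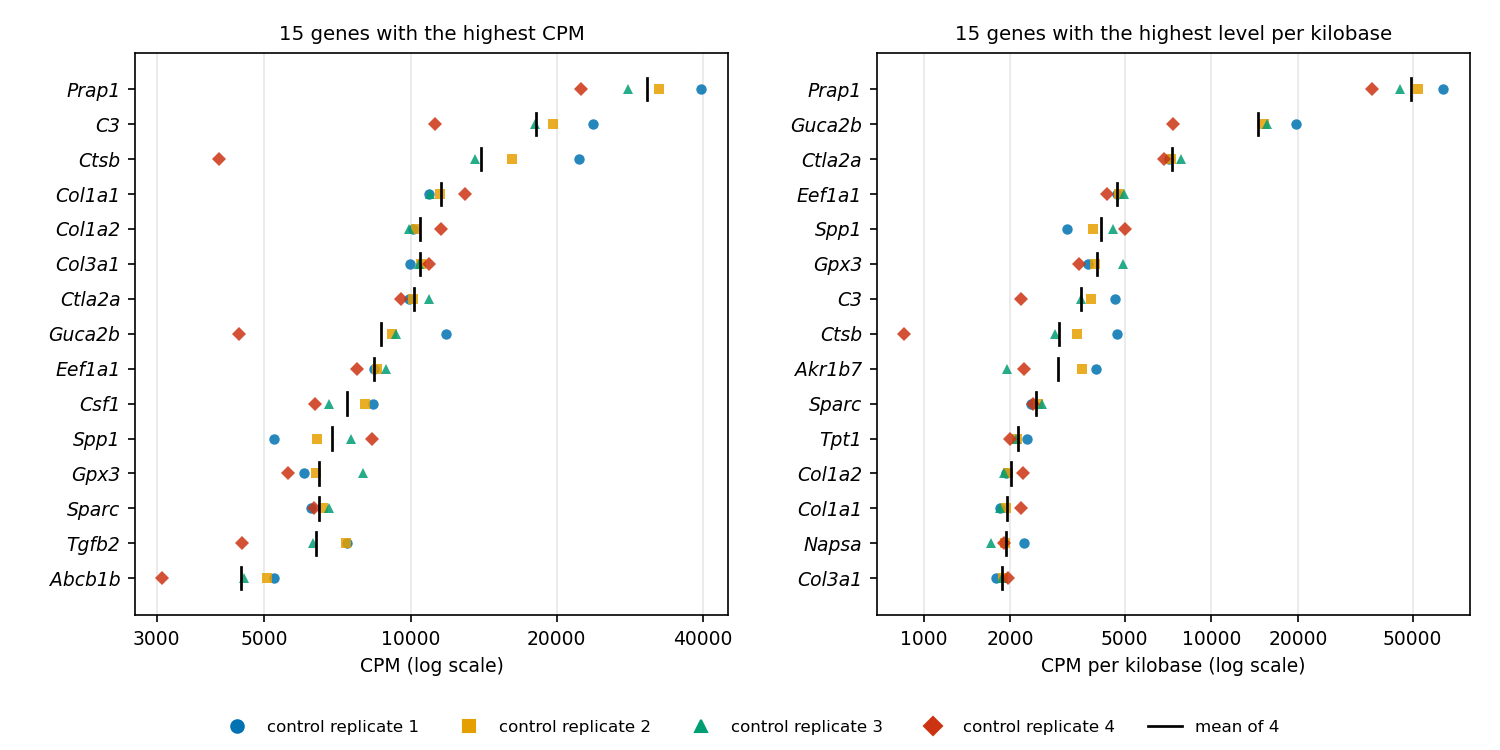
Levels of the most abundant genes in the 4 control libraries, in CPM (left) and in CPM per kilobase (right), both on log axes; each symbol is 1 library and the bar is the mean of 4. Replicate 4, the diamonds, lies well to the left of the others for Ctsb and Guca2b, and the collagen and elongation factor genes sit close together.

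The promoters of the most abundant gene, of the guanylin pair described further on, of the most variable gene and of 1 smooth muscle gene are shown because these genes stand out in level or spread. They are RefSeq windows of the build GRCm38.p6, from 250 bases before to 50 bases after the start of the gene, read 5′ to 3′ on the strand of the gene. The windows lie at chr7:140093146-140093445 on the plus strand for Prap1, at chr4:119658896-119659195 on the minus strand for Guca2b, at chr4:119637482-119637781 on the plus strand for Guca2a, at chr3:92123898-92124197 on the minus strand for Prr9 and at chr2:156775214-156775513 on the plus strand for Myl9. Capitals mark the motif TATAAA on either strand or a CArG box, the sequence bound by serum response factor. The Prap1, Guca2b and Guca2a windows hold no match to either.
Prap1: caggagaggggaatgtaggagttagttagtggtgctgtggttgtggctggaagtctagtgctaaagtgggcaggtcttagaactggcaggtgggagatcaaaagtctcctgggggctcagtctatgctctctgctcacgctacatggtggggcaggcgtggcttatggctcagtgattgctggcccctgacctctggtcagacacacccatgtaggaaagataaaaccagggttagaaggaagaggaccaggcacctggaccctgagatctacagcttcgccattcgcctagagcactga
Guca2b: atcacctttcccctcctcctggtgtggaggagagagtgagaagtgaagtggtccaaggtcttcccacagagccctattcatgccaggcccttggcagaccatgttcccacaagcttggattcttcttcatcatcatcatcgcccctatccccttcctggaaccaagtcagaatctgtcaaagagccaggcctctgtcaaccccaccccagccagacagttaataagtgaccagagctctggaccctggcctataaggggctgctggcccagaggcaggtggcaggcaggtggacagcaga
Guca2a: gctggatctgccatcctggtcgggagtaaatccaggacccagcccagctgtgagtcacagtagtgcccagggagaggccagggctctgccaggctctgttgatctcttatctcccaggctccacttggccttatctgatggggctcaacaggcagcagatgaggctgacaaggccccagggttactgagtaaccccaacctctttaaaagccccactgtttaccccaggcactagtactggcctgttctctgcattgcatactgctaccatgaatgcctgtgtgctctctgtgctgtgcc
Prr9: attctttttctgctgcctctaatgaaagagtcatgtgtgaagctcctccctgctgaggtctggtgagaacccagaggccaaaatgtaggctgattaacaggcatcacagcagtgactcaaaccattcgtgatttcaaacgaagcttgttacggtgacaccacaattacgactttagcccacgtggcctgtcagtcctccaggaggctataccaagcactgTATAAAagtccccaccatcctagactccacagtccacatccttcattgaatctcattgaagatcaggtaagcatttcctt
Myl9: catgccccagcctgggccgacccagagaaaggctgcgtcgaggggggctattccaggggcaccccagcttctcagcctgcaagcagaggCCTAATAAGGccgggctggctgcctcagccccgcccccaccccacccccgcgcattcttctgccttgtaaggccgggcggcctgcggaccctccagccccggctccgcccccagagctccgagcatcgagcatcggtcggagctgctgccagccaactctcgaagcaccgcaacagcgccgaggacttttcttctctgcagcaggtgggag

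TATAAA lay 30 bases before the start of Prr9, and the CArG box lay 161 bases before the start of Myl9. Searched on both strands, TATAAA occurred in 13.6% of all 32851 windows, in 6 of the 15 windows found for 13 of the 15 most abundant genes (among them C3, Col3a1, Ctla2a, Spp1 and Tgfb2) and in 5 of 17 windows for 17 of the 20 most variable genes. The CArG box occurred in 1.63% of all windows and in 1 of the 17 windows found for 16 of the 20 smooth muscle markers. A match describes letters in these windows only.

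Smooth muscle genes were present throughout. All 20 listed smooth muscle markers reached 1 CPM, and together they took 1.98, 2.42, 2.58 and 2.38% of the counts in replicates 1 to 4. Replicate 1 was the lowest, and 17 of the 20 markers had their lowest level there. The share of all genes lowest in replicate 1 was not counted, so whether 17 of 20 is unusual was not tested. In the gene group lists, the members lowest in replicate 1 were 12 of 18 for cell cycle and 10 of 19 for interferon response. They were 7 of 14 for housekeeping, 7 of 16 for hypoxia and glycolysis, 5 of 18 for the unfolded protein response and 2 of 18 for ribosomal proteins. A low replicate 1 was thus not particular to muscle markers. As another measure, 12.2% of all genes at 1 CPM or more had their highest level there. Among the 6 actins, the smooth muscle form Actg2 led at 1648 ± 298 CPM per kilobase, with 1633, 2129, 2378 and 2529 CPM before division by length. The vascular smooth muscle form Acta2 (1263 ± 177 CPM per kilobase) and the cytoplasmic Actb (1221 ± 262) followed, and the ranges of neighbours in this order overlapped, although Actg2 led in each library. The cardiac actin Actc1 was the least abundant and most variable actin, at 3.62, 10.4, 8.62 and 12.2 CPM.

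Myh11, the smooth muscle myosin heavy chain whose promoter drives the Cre transgene (chromosome 16, 14194535 to 14291372), was at 2433, 3052, 2906 and 2509 CPM. At 411 ± 45.4 CPM per kilobase it held 71.2% of the level of its family, 3.86 times that of the non-muscle chain Myh9. Only 4 of 14 heavy chains reached 1 CPM, and the skeletal chain Myh4 had no count. Of the light chains, Myl6, an essential chain, stood at 979 ± 66.5 CPM per kilobase, above Myl9, the regulatory chain of smooth muscle, at 749 ± 80.5, without overlap. Tpm1 led the tropomyosins at 582 ± 75.4 CPM per kilobase, and its range overlapped that of Tpm2 at 447 ± 61.8. Tagln, the actin-binding protein transgelin, was at 1476 ± 149 CPM per kilobase, 3.15 times Cnn1, calponin.

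Des, the muscle intermediate filament desmin, led the intermediate filaments at 687 ± 121 CPM per kilobase over Vim, vimentin, at 376 ± 40.1. The epithelial keratins Krt18 (221 ± 32.2) and Krt8 (191 ± 73.1, or 216 ± 64.2 without replicate 4) came after these. Krt19 was at 213, 218, 79.5 and 85.9 CPM, and so split the libraries into a higher pair, replicates 1 and 2, and a lower pair. Mylk, the kinase that phosphorylates the regulatory light chain, was at 148 ± 16.1 CPM per kilobase, against 169 ± 4.39 for Ppp1ca and 65.4 ± 7.05 for Ppp1cb, catalytic subunits of protein phosphatase. Tagln shares exon positions with Pcsk7, Mylk with E130310I04Rik and Ppp1ca with Rad9a, and their counts carry that uncertainty.

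Among the nuclear steroid receptors, Esr1, the oestrogen receptor alpha, had the highest level, and Pgr, the progesterone receptor, came second. Esr1 was at 309.6, 315, 269.7 and 306 CPM and Pgr at 137, 125, 109 and 109.9 CPM in replicates 1 to 4. Per kilobase these are 34.2 ± 2.35 and 17.4 ± 1.92, so the mean of Esr1 was 1.97 times that of Pgr, and its lowest library exceeded the highest of Pgr. Nr3c1, the glucocorticoid receptor, followed at 7.44 ± 0.517 CPM per kilobase, again without overlap. Counts per gene do not separate the A and B isoforms of the progesterone receptor. Esr2, the oestrogen receptor beta, was the only one of the 6 receptors under 1 CPM.

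Pgrmc1, a membrane-associated progesterone-binding protein, exceeded Pgr per kilobase, at 70.6 ± 1.92, and took 60.5% of its family, ahead of Pgrmc2 at 22.8 ± 1.71 and Paqr5 at 20.4 ± 2.69. Nr1h2, the liver X receptor beta, led the other nuclear receptors at 38.3 ± 0.541 CPM per kilobase, 2.06 times Nr2f2, a regulator of uterine stroma, and 27 of 31 of them reached 1 CPM. The enzymes that act on steroids were led by Hsd11b1, which regenerates active glucocorticoid, and Akr1c18, which inactivates progesterone, at 778 ± 160.2 and 752 ± 106 CPM per kilobase. Each of the pair led in 2 libraries. Hsd11b2, which inactivates glucocorticoid, was at 278 ± 52.02, and the side-chain cleavage enzyme Cyp11a1 was at 2.601, 2.82, 4.76 and 26.8 CPM, highest in replicate 4.

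Receptors for oxytocin, acetylcholine, tachykinins and angiotensin were low compared with Esr1 and Pgr. Oxtr, the oxytocin receptor, was at 5.98, 7.59, 9.52 and 8.08 CPM, or 1.699 ± 0.319 CPM per kilobase, which is 0.26 as an SD on the log2 scale. It took 86.4% of its family, and no vasopressin receptor reached 1 CPM. Chrm3, the muscarinic receptor coupled to phospholipase C, was at 2.91, 2.82, 2.61 and 3.45 CPM and was the only muscarinic receptor at 1 CPM. No tachykinin receptor reached that level. Agtr1a, the angiotensin receptor, led its family at 4.49 ± 0.693 CPM per kilobase.

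The prostanoid receptors had no settled leader. Ptger4, which raises cyclic AMP, was at 47.9, 63.2, 66.9 and 46.1 CPM, Ptger1, which raises calcium, at 29.8, 31.6, 36.04 and 32.9 CPM and Ptgdr, the prostaglandin D receptor, at 38.7, 41.2, 49.1 and 61.3 CPM. Per kilobase they stood at 16.8 ± 3.17, 15.7 ± 1.26 and 14.9 ± 3.19, their ranges overlapped, and Ptgdr led in replicate 4 while Ptger4 led in the other 3. Without replicate 4 Ptgdr stood at 13.5 ± 1.697. Ptgfr, the receptor of the contractile prostaglandin F, was far lower, at 1.33, 1.04, 1.77 and 0.771 CPM and 0.278 ± 0.0975 CPM per kilobase. Ptger1 and Ptger4 share exon positions with other genes, so their counts carry that uncertainty. 8 of 9 members reached 1 CPM. Ednrb, an endothelin receptor, was at 22.1 ± 4.14 CPM per kilobase, 2.36 times Ednra, the receptor of vascular and uterine smooth muscle, at 9.38 ± 1.36, with no overlap.

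Among the receptors that favour relaxation, Rxfp1, the relaxin receptor, was at 76.2, 64.1, 89.8 and 78.7 CPM and took 93.9% of its family. Rxfp2, the receptor of the insulin-like peptide INSL3, was at 3.47, 1.32, 7.41 and 1.29 CPM, highest in replicate 3 and unsteady throughout. Ramp2, Ramp1 and Ramp3, the partner proteins that set the ligand of the calcitonin-like receptor, stood at 47.3 ± 4.33, 20.8 ± 1.66 and 11.99 ± 3.73 CPM per kilobase, without overlap between neighbours, and Ramp3 at 10.2 ± 0.925 without replicate 4. Exons of Ramp2 overlap those of Vps25. Npr2, the receptor of C-type natriuretic peptide, and Npr1, that of atrial peptide, stood at 14.4 ± 1.91 and 10.6 ± 1.55 CPM per kilobase with overlapping ranges, and Gucy1b1, a subunit of the nitric oxide receptor, at 6.96 ± 0.548.

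Adra2a, an adrenergic receptor that lowers cyclic AMP, stood at 4.35 ± 1.18 CPM per kilobase. 4 of 9 adrenergic receptors reached 1 CPM. Pth1r, the receptor of parathyroid hormone and its related peptide, led the secretin family at 6.39 ± 0.935 CPM per kilobase, and Pth2r was at 6.66, 8.94, 9.49 and 3.08 CPM, lowest in replicate 4. Lpar1, a lysophosphatidic acid receptor, was the most abundant of the lysophospholipid receptors at 33.8 ± 1.602 CPM per kilobase, 2.47 times S1pr2. F2r, the thrombin receptor, was at 29.2 ± 3.302 CPM per kilobase. P2rx4 and P2rx2, cation channels opened by ATP, stood at 19.7 ± 2.39 and 18.001 ± 3.14 CPM per kilobase, overlapped, and changed places in 1 library. P2ry6, a receptor of uridine nucleotides, led the metabotropic receptors at 10.1 ± 0.663 CPM per kilobase.

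**Figure D2:**
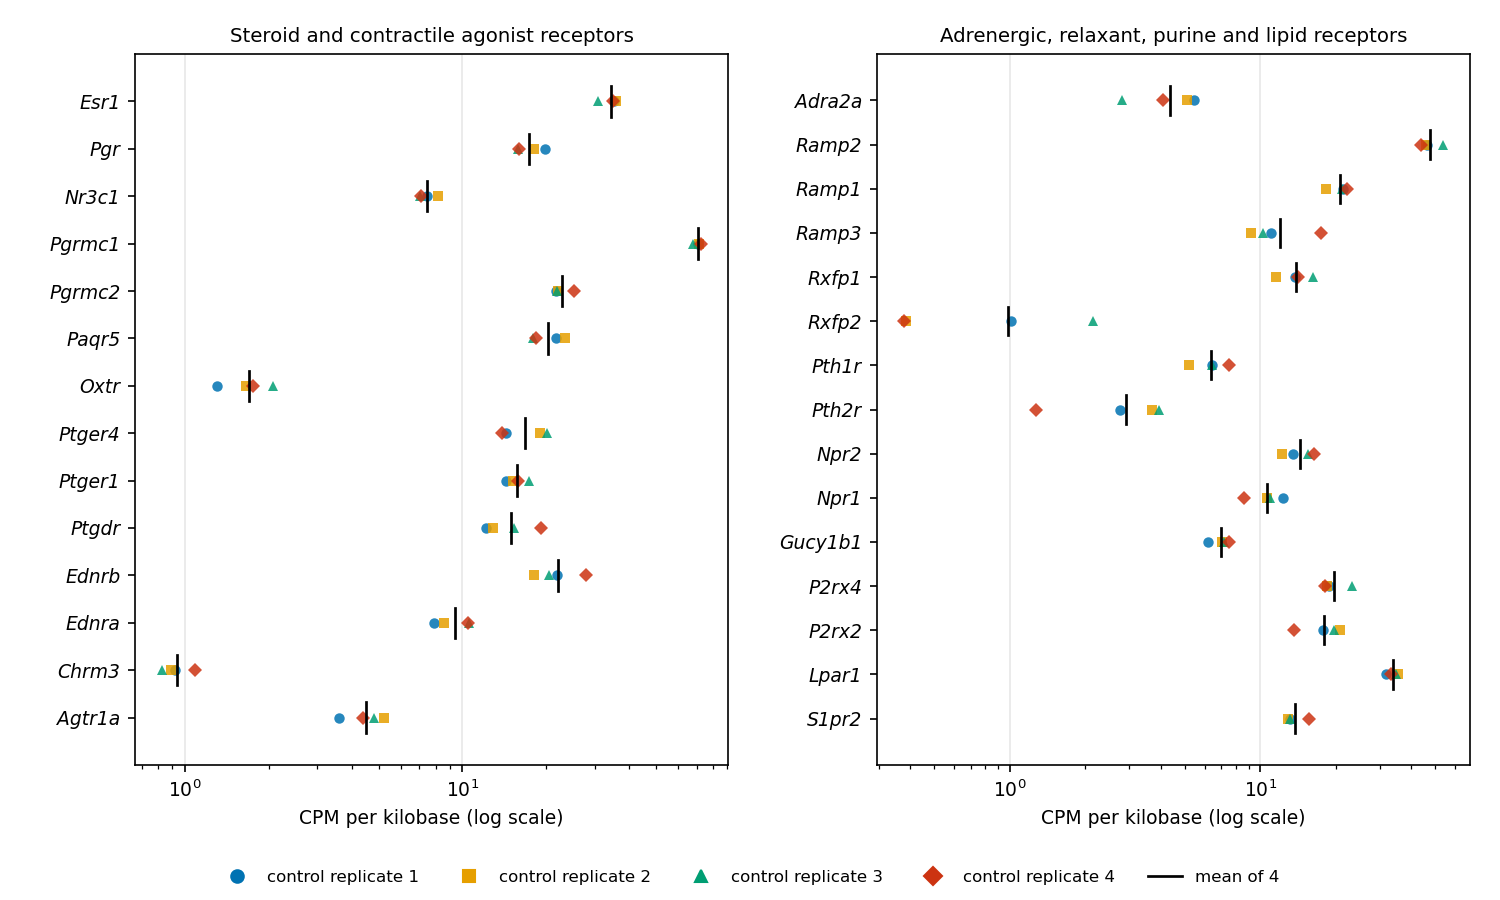
Levels per kilobase (log axis) of members of 14 receptor families named in the text in the 4 control libraries; each symbol is 1 library and the bar is the mean of 4. Esr1 and Pgr do not overlap, Ptger4, Ptger1 and Ptgdr do, and Rxfp2 and Pth2r scatter far more than their neighbours.

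The pores for voltage-gated calcium entry were split between T-type and L-type genes. Cacna1g and Cacna1h, which encode T-type pores, and Cacna1c, the L-type pore of smooth muscle, were at 61.8, 41.01, 59.3 and 46.03 CPM, 42.7, 50.5, 49.9 and 49.9 CPM and 59.9, 69.9, 60.8 and 55.7 CPM. Per kilobase they stood at 6.33 ± 1.23, 5.86 ± 0.453 and 4.17 ± 0.405. Cacna1g and Cacna1h overlapped and each led in 2 libraries, whereas Cacna1c lay below both, although its mean count was the highest of the 3, since the length given for it is the longest. Exons of Cacna1h overlap those of Tpsg1. Cacnb3 led the accessory subunits at 10.6 ± 1.07 CPM per kilobase, 3.14 times Cacnb2.

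Trpv6, a calcium-selective channel of transporting epithelia, was at 83.3, 123, 178 and 356 CPM, the most variable of the leading channel genes. Replicate 1 was lowest and replicate 4 highest, and its level per kilobase was 63.2 ± 41.1, with a mean of 185 ± 120.3 CPM over all libraries and 128 ± 47.7 CPM without replicate 4. It led the TRP channels in every library. Pkd2 and Trpm6 followed at 21.97 ± 0.593 and 11.7 ± 2.06 CPM per kilobase. Stim1, the store calcium sensor, Piezo1, a mechanically gated channel, and Orai3, a store-operated pore, stood at 17.3 ± 0.389, 14.3 ± 1.05 and 13.6 ± 0.308. Their SDs of log2 CPM were 0.03, 0.10 and 0.03.

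Itpr3 and Itpr1, receptors of inositol trisphosphate that release stored calcium, stood at 8.79 ± 0.471 and 6.89 ± 0.273 CPM per kilobase without overlap, and 4 of 6 release channels reached 1 CPM. Atp2a2, the pump that refills the store, led the pumps at 60.6 ± 5.15 CPM per kilobase, above Atp2c2 at 41.9 ± 2.76 and the plasma membrane pump Atp2b1 at 23.6 ± 2.44. Calr, the store protein calreticulin, was at 1017 ± 54.8 CPM per kilobase. Jph2, which ties the store to the cell surface, and Mrvi1, the target of cyclic GMP kinase at the store, were at 25.99 ± 4.09 and 17.1 ± 0.527. Pln, the inhibitor of the store pump, was at 1.73, 3.04, 1.49 and 4.13 CPM and was the most variable of the smooth muscle markers. Calm2 led the calmodulins at 345 ± 18.1 CPM per kilobase.

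Potassium channel levels were dominated by genes known from epithelia. Kcne2, an accessory subunit, was at 470.4, 501, 374 and 294 CPM and took 84.02% of its family, and Kcnk1, a tandem-pore channel, was at 350.1, 326, 269 and 318 CPM and took 89.04%. Per kilobase Kcne2 stood at 231 ± 53.4 and Kcnk1 at 137 ± 14.7. Kcnmb1 and Kcnma1, the smooth muscle accessory subunit and the pore of the large-conductance calcium-activated channel, stood far lower, at 12.7 ± 1.97 and 5.66 ± 0.567 CPM per kilobase. Kcnj8 and Abcc9, the pore and the sulphonylurea receptor of the ATP-sensitive channel of smooth muscle, stood at 13.999 ± 1.696 and 5.43 ± 0.32003.

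The voltage-gated pores had 17 of 39 members at 1 CPM and no dominant one. Kcnh2, the channel of the rapid delayed rectifier current, was at 31.4, 29.6, 32.6 and 35.2 CPM. Kcnn4, a calcium-activated channel of intermediate conductance, and Kcnj1, an epithelial inward rectifier, were highest in replicate 4, at 5.203, 7.499, 5.23 and 11.8 CPM and 1.55, 3.36, 1.46 and 12.7 CPM. Among the chloride channel and anoctamin genes, Ano6, a lipid scramblase, and Ano10 stood at 17.7 ± 0.818 and 16.9 ± 1.24 CPM per kilobase, with overlap. Ano1, the calcium-activated chloride channel of smooth muscle and pacemaker cells, was at 44.3, 32.2, 43.8 and 52.4 CPM, or 9.38 ± 1.804 CPM per kilobase. Scnn1b, a subunit of the epithelial sodium channel, took 56.6% of the sodium channel level.

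**Figure D3:**
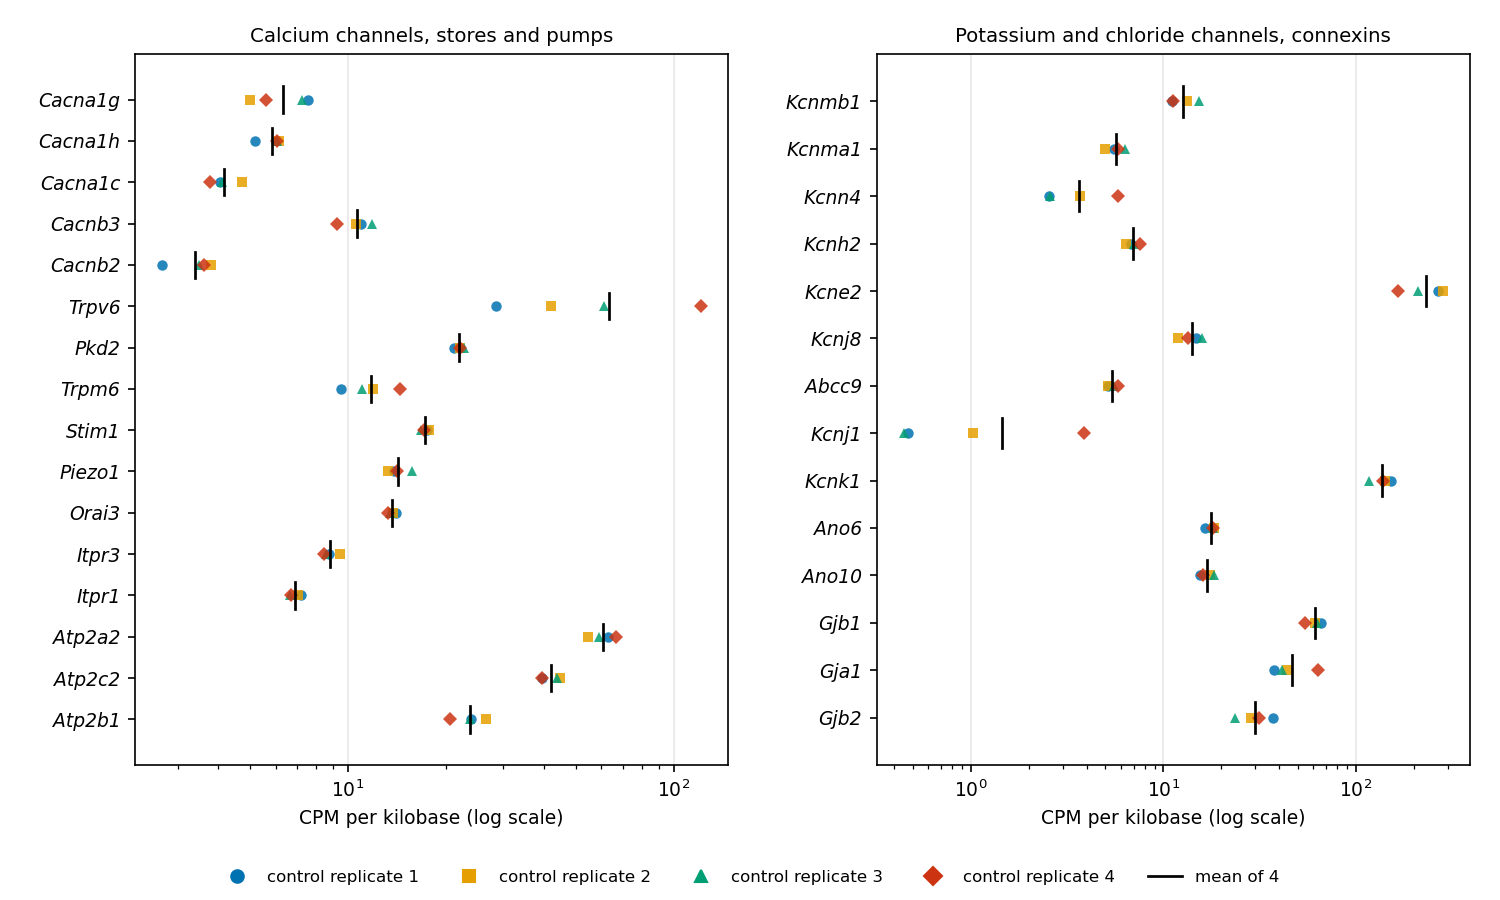
Levels per kilobase (log axis) of calcium channels, stores and pumps (left) and potassium and chloride channels and connexins (right) named in the text, in the 4 control libraries; each symbol is 1 library and the bar is the mean of 4. Kcne2 and Kcnk1 stand above the smooth muscle channels, Trpv6 and Kcnj1 scatter widely, and Gja1 lies right of Gjb1 in replicate 4 only.

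The connexins, which form gap junctions, had 3 genes well above the rest. Gja1, the connexin of labouring myometrium, was at 117, 136, 128 and 197 CPM, Gjb1, a connexin of epithelia, at 119, 111, 113 and 98.04 CPM and Gjb2 at 88.7, 68.2, 56.6 and 74.98 CPM. Per kilobase Gjb1 led at 60.95 ± 4.91 over Gja1 at 46.6 ± 11.6 (40.9 ± 3.16 without replicate 4) and Gjb2 at 29.999 ± 5.59. Gja1 was highest in replicate 4 and overtook Gjb1 there alone. 9 of 20 connexins reached 1 CPM and 3 had no count.

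Of the phospholipase C genes, 14 of 15 reached 1 CPM, and Plcb3, an isoenzyme driven by G proteins, led in each library at 127, 126, 129 and 122 CPM. Per kilobase it stood at 29.6 ± 0.714, 2.55 times Plce1 at 11.6 ± 1.39, and Plcg1 was level with Plce1 at 11.6 ± 0.8403. Exons of Plcb3 overlap those of Ppp1r14b. Plcl2, an inactive relative of these enzymes, was at 28.1, 37.9, 27.98 and 41.2 CPM, or 8.34 ± 1.67 CPM per kilobase, with replicates 2 and 4 above replicates 1 and 3. Prkcd led the protein kinase C genes at 29.8 ± 1.24 CPM per kilobase, 2.104 times Prkci, and all 9 isoforms reached 1 CPM.

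Gnai2, an inhibitory alpha subunit of G proteins, led its family at 168 ± 5.33 CPM per kilobase over Gnas, the stimulatory subunit, at 110.1 ± 7.63. Rgs5 and Rgs2, which speed the shut-off of G proteins, stood at 75.4 ± 8.18 and 72.6 ± 17.3 CPM per kilobase, and Rgs2 led in replicate 4, without which it stood at 64.1 ± 4.33. Adcy6 was the leading adenylyl cyclase at 15.01 ± 1.07 CPM per kilobase, 1.95 times Adcy5. Pde7a, a phosphodiesterase of cyclic AMP, was at 138, 141, 101 and 106 CPM, with replicates 1 and 2 above replicates 3 and 4, and led its family at 18.7 ± 3.21 CPM per kilobase.

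Prostaglandin genes were led by different members in different libraries. Ptges3, a cytosolic prostaglandin E synthase and chaperone, Abcc4, an efflux transporter of prostaglandins, and Hpgd, which inactivates prostaglandins, stood at 54.6 ± 5.44, 47.4 ± 9.42 and 46.9 ± 18.3 CPM per kilobase, all overlapping. Hpgd was at 49.98, 81.5, 67.1 and 124 CPM and was highest in replicate 4, without which it stood at 38.5 ± 9.18 CPM per kilobase, and where Abcc4, at 321, 324, 267 and 206 CPM, was lowest. Ptgs2, the inducible cyclooxygenase, was at 5.54, 6.93, 5.26 and 6.197 CPM, a level near that of Oxtr in CPM, and per kilobase it stood at 1.34 ± 0.167.

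The main fibrillar collagens were abundant and steady, whereas other matrix genes varied more. 35 of 44 collagen genes reached 1 CPM. Col1a2, Col1a1 and Col3a1 stood at 2004 ± 143, 1951 ± 159 and 1878 ± 69.7 CPM per kilobase, within each other's range, although Col1a2 led in all 4 libraries. Dcn and Bgn, the proteoglycans decorin and biglycan, stood at 638 ± 85.7 and 586 ± 125 CPM per kilobase and changed places in 1 library, with Bgn highest in replicate 3 at 1295, 1273, 1871 and 1238 CPM over replicates 1 to 4. Spp1 led the matrix glycoproteins, ahead of Sparc and of Postn, periostin, which was at 1799.6, 2391, 3284 and 2270.5 CPM and highest in replicate 3. The SDs of log2 CPM were 0.36 for Postn, 0.29 for Spp1 and 0.28 for Bgn, against 0.11 for Col1a1. Timp2, an inhibitor of metalloproteinases, stood at 171 ± 26.7 CPM per kilobase, above the membrane-bound Mmp14 at 93.3 ± 12.9 and the gelatinase Mmp2 at 77.9 ± 11.6.

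Itgb1, the common beta subunit of matrix receptors, led the integrins at 273 ± 31.6 CPM per kilobase, 2.82 times Itga5, the fibronectin receptor subunit. Igfbp2, a binding protein of insulin-like growth factors, was at 716, 567, 1189.9 and 375 CPM, highest in replicate 3 and lowest in replicate 4, where Igfbp7 led instead. Igfbp7 was at 401, 369.7, 470.4 and 399 CPM, and its exons overlap those of Polr2b. Tgfa led the EGF family ligands at 5.65 ± 0.882 CPM per kilobase, and the receptors Erbb2, Erbb3 and Egfr stood at 15.002 ± 1.66, 13.7 ± 1.94 and 8.27 ± 0.2401. Serpina1e, an alpha-1 antitrypsin gene, was at 1146, 1432, 1352 and 853 CPM and took all but a trace of the level of its 6-gene cluster, whose near-identical copies make the split of reads uncertain.

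Hoxa10 and Hoxa11, needed for uterine receptivity and decidualization, stood at 35.7 ± 4.999 and 20.8 ± 3.099 CPM per kilobase, Hoxb6 led its cluster at 30.7 ± 2.55, Hoxd10 at 16.3 ± 1.9003 and Hoxc6 at 2.06 ± 0.479. The same gene led each of the 4 Hox clusters in every library. Gata2, a partner of the progesterone receptor, was at 37.7, 37.6, 45.7 and 57.6 CPM, highest in replicate 4, and stood 3.89 times Gata6 per kilobase. Zeb1 and Zeb2, repressors that act on contraction genes, were at 67.8, 70.7, 66.9 and 75.96 CPM and 48.5, 59.1, 55.6 and 45.8 CPM. Per kilobase Zeb1 stood at 2.597 times the level of Zeb2, 11.6 ± 0.671 against 4.46 ± 0.525, without overlap. Srf, the serum response factor, was at 21.4 ± 0.812 CPM per kilobase, below Klf4 at 29.7 ± 2.62. Ier3 and Fosl2 led the immediate early and AP-1 genes at 345 ± 56.8 and 66.9 ± 6.72.

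Over the 70 families examined, 69 had a member at 1 CPM, and 54 had the same leading gene per kilobase in all 4 libraries. The leader changed in 15, in 6 of them in replicate 4 only. In 50 families the lowest library of the leader exceeded the highest library of the next gene, and in 25 the leader held over 50% of the summed level. In 51 the leader was the same gene by CPM and per kilobase.

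The counts of listed cell type markers were summed as a share of each library, which is not the share of counts that comes from a cell type. Fibroblast markers took 3.56, 3.74, 3.63 and 3.98% of counts in replicates 1 to 4, against 0.185, 0.183, 0.152 and 0.136% for 12 epithelial and gland markers, 0.0889, 0.08998, 0.0915 and 0.107% for endothelium and 0.109, 0.1296, 0.128 and 0.118% for macrophages and other leukocytes. The fibroblast share rests on the collagen genes. Epcam and Cdh1, adhesion proteins that define epithelia, were at 297, 333, 384 and 335 CPM and 252, 281, 231 and 247 CPM, with no library apart. Other members of the list were lower in replicates 3 and 4. Krt8 was at 469.9, 444, 258 and 207 CPM and Krt18 at 358, 336, 287 and 259 CPM. Of the 10 members at 1 CPM, 5 were lowest in replicate 4. The share of all genes lowest in replicate 4 was not counted, so whether 5 of 10 is unusual was not tested. Csf1r, the receptor for Csf1 on macrophages, had a level of 284 ± 4.89 CPM and an SD of 0.02 on the log2 scale. Markers of uterine natural killer cells were low, with 6 of 12 at 1 CPM and summed levels of 10.3, 15.1, 24.1 and 17.7 CPM.

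Replicate 4 differed most in the lists for decidua and placenta. Decidual markers took 0.0794, 0.1197, 0.12000 and 1.02% of counts, and the difference came from Prl8a2, a prolactin of the decidua, at 167, 444, 424 and 5232 CPM, and Erv3, an endogenous retroviral gene, at 415, 577, 488 and 4758 CPM. Without replicate 4 these genes had 345 ± 154 and 493 ± 81.4 CPM. Cyp26a1, a retinoic acid hydroxylase of the same list, was at 110.1, 78.3, 158 and 98.3 CPM and was not raised there. Trophoblast and placental markers took 0.00114, 0.00238, 0.00181 and 0.0139% of counts, 4 of 27 reached 1 CPM, and 8 defining genes, among them Gcm1, Synb, Ctsq and Psg21, had no count. Tpbpa, a spongiotrophoblast marker, was at 0.155, 0.627, 0.311 and 12.8 CPM, and Prl2c5 and Prl8a9, placental and decidual prolactins with close paralogs, at 0.124, 0.9099, 2.37 and 38.1 CPM and 0.836, 9.63, 3.61 and 71.96 CPM.

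Of all genes at 1 CPM or more, 46.1% had their highest level in replicate 4. Of 18 listed cell cycle genes, all 18 were highest there, and their summed share was 0.05501, 0.0665, 0.0575 and 0.133%. Mki67, the proliferation marker, was at 55.7, 76.6, 67.3 and 177 CPM, and Top2a, the topoisomerase of dividing cells, at 44.2, 55.5, 47.2 and 141 CPM. Of 16 hypoxia and glycolysis genes, 14 were highest there, and Adm, adrenomedullin, was at 8.67, 9.04, 10.9 and 36.4 CPM. Ribosomal protein genes and genes of the unfolded protein response were highest there in 14 of 18 and 13 of 18, with shares of 1.32, 1.24, 1.37 and 1.45% and 0.967, 0.961, 0.986 and 1.05%. Such small differences depend on the scaling to total counts. TMM factors were 0.966, 0.996, 0.996 and 1.04 in replicates 1 to 4, and dividing by them raises replicate 1 and lowers replicate 4. The interferon response and housekeeping lists were highest there in 9 of 19 and 7 of 14 members, but their summed shares were not, at 0.0734, 0.0795, 0.0829 and 0.0788% and 0.625, 0.737, 0.683 and 0.731%. The part of decidual or placental tissue in the other differences of replicate 4 was not tested.

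Mesothelial markers split the libraries another way, at 0.0375, 0.0407, 0.0219 and 0.0227%, higher in replicates 1 and 2. Their summed levels were 375, 407, 219 and 227 CPM. Krt19, a keratin that is also on the epithelial list, gave 213, 218, 79.5 and 85.9 CPM of these. The split therefore rests largely on Krt19 and is not separate from the epithelial list. Msln, mesothelin, was at 40.1, 42.98, 30.7 and 20.8 CPM and Upk3b at 41.3, 52.96, 30.7 and 19.6 CPM. The globin genes Hba-a1, Hba-a2, Hbb-bs and Hbb-bt are listed at 0 in all 4 libraries while Alas2, the erythroid haem synthesis enzyme, was at 10.3, 8.28, 7.81 and 14.9 CPM, and why the globin genes are listed at 0 is not given in the sources used here. All 8 Y-linked genes listed had no count, where 3 counts would be between 0.0925 and 0.0941 CPM. Those limits cover counting error only. The table holds 0 genes with the name prefix mt- of mitochondrially encoded genes.

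**Figure D4:**
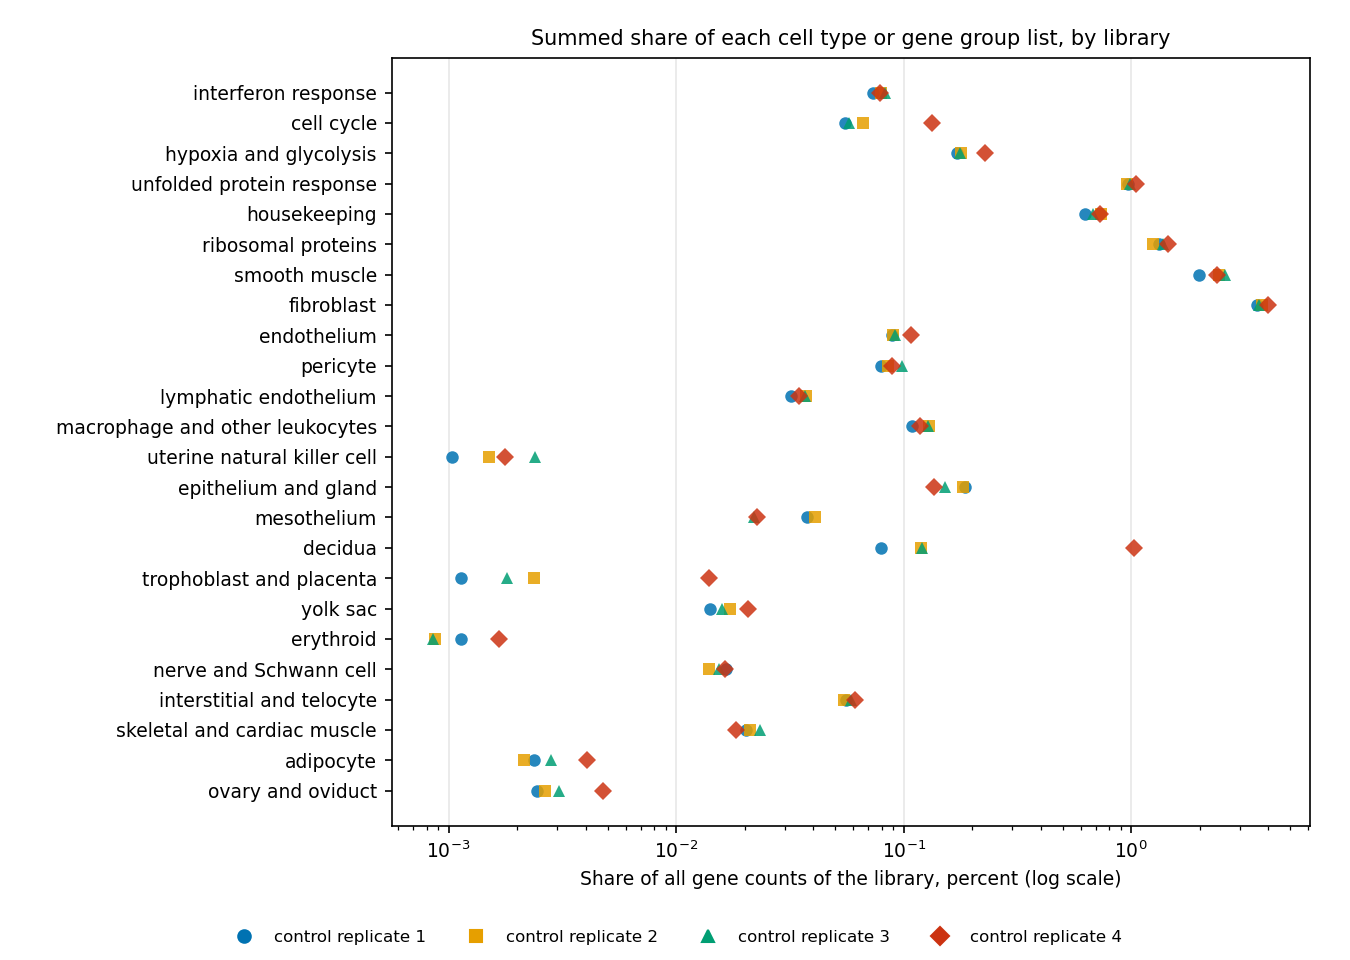
Share of all gene counts, in percent on a log axis, taken by each list of cell type markers or gene group in the 4 control libraries, with 1 symbol per library. Decidual, trophoblast and cell cycle lists are highest in replicate 4, and the smooth muscle and fibroblast lists take the largest shares. The mesothelial list is higher in replicates 1 and 2, largely through Krt19, which is also on the epithelial list.

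Most genes differed little between the 4 libraries. Among 11530 genes with a mean of at least 5 CPM, the median SD of log2(CPM + 0.5) was 0.13, against 0.04 from counting alone, and it was 0.10 without replicate 4. An SD of 0.5 or more was reached by 445 genes, or 3.86% of them, and an SD of 1 by 60. Of the 445, 336 lay farthest from the others in replicate 4, 272 of these high and 64 low. Without that library 169 of the 11530 genes reached 0.5, of which 129 had also done so with it. Of 643 listed family, group and marker genes at 5 CPM, 57 reached 0.5, beside the 3.86% of all genes.

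The most variable gene was Prr9, a proline-rich protein of stratified epithelium, at 0.495, 5.43, 1.25 and 109 CPM (SD 3.03). Klk7, a kallikrein protease of skin, was at 0.186, 0.816, 0.374 and 46.4 CPM, and Ada, adenosine deaminase, at 5.54, 8.31, 9.71 and 236 CPM. Procr, the endothelial protein C receptor, was at 39.2, 44.5, 63.6 and 689 CPM and Rimklb at 25.5, 27.3, 29.5 and 308 CPM. All 5 were highest in replicate 4 by a wide margin, and without it their means were 2.39 ± 2.66, 0.458 ± 0.323, 7.86 ± 2.12, 49.1 ± 12.8 and 27.5 ± 1.97 CPM. Sprr2h was at 2.54, 3.04, 2.37 and 70.04 CPM, Tchh, trichohyalin, at 7.56, 8.31, 8.78 and 99.5 CPM and its relative Tchhl1 at 1.55, 1.098, 1.77 and 29.4 CPM. These too are genes of differentiated epithelium, but they were picked from the 20 most variable genes. Their shared pattern therefore says nothing about such genes as a set, and no list of them was examined. Of the 10 listed epithelial and gland markers at 1 CPM, 1 was highest in replicate 4, beside 46.1% of all genes.

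Of the 20 most variable genes, 19 were highest in replicate 4. The exception was Eno1b, a near copy of the enolase gene Eno1, at 0.867, 1.07, 17.7 and 0.987 CPM, high in replicate 3 alone. Coch, a secreted matrix protein, was at 43.4, 2.76, 54.3 and 260.3 CPM, highest in replicate 4 but also low in replicate 2 alone, and its SD was 2.62 with replicate 4 and 2.26 without it. Eno1b kept an SD of 2.10 without replicate 4. Orm1, an acute phase protein, Cryaa, a lens crystallin, Aspg, Olr1 and Fgfbp1 made up the rest, with 0.279, 1.63, 0.778 and 23.99 CPM, 0.836, 0.157, 0.685 and 20.6 CPM, 4.89, 3.04, 10.3 and 73.9 CPM, 9.66, 3.73, 13.7 and 70.7 CPM and 3.34, 2.26, 3.49 and 36.6 CPM in that order.

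The neighbouring genes Guca2a and Guca2b (chromosome 4, 119637704 to 119639471 and chromosome 4, 119656607 to 119658954 in the GENCODE annotation of GRCm38), which encode guanylin and uroguanylin, went opposite ways in replicate 4. Guca2a was at 0.465, 0.973, 0.591 and 24.6 CPM, highest in that library, whereas Guca2b, at the values above, was lowest there. Guca2b had an SD of 0.61 and 0.21 without replicate 4, and Guca2a of 2.23 and 0.31.

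The steadiest genes at 50 CPM or more were of general cell function. Fnta, a subunit of protein farnesyltransferase, was at 57.1, 56.5, 56.8 and 56.9 CPM, an SD of 0.01, which is under the spread that counting alone gives. Nxf1, an mRNA export factor, Rab1b, a secretory pathway GTPase, and Golga2, a Golgi matrix protein, had 137 ± 1.03, 116 ± 0.914 and 157 ± 1.6001 CPM, and Ahcyl2, Esyt2, Sept8, Josd1, Supt20 and Ncbp2 made up the 10. They were chosen as the smallest of 4056 spreads.

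**Figure D5:**
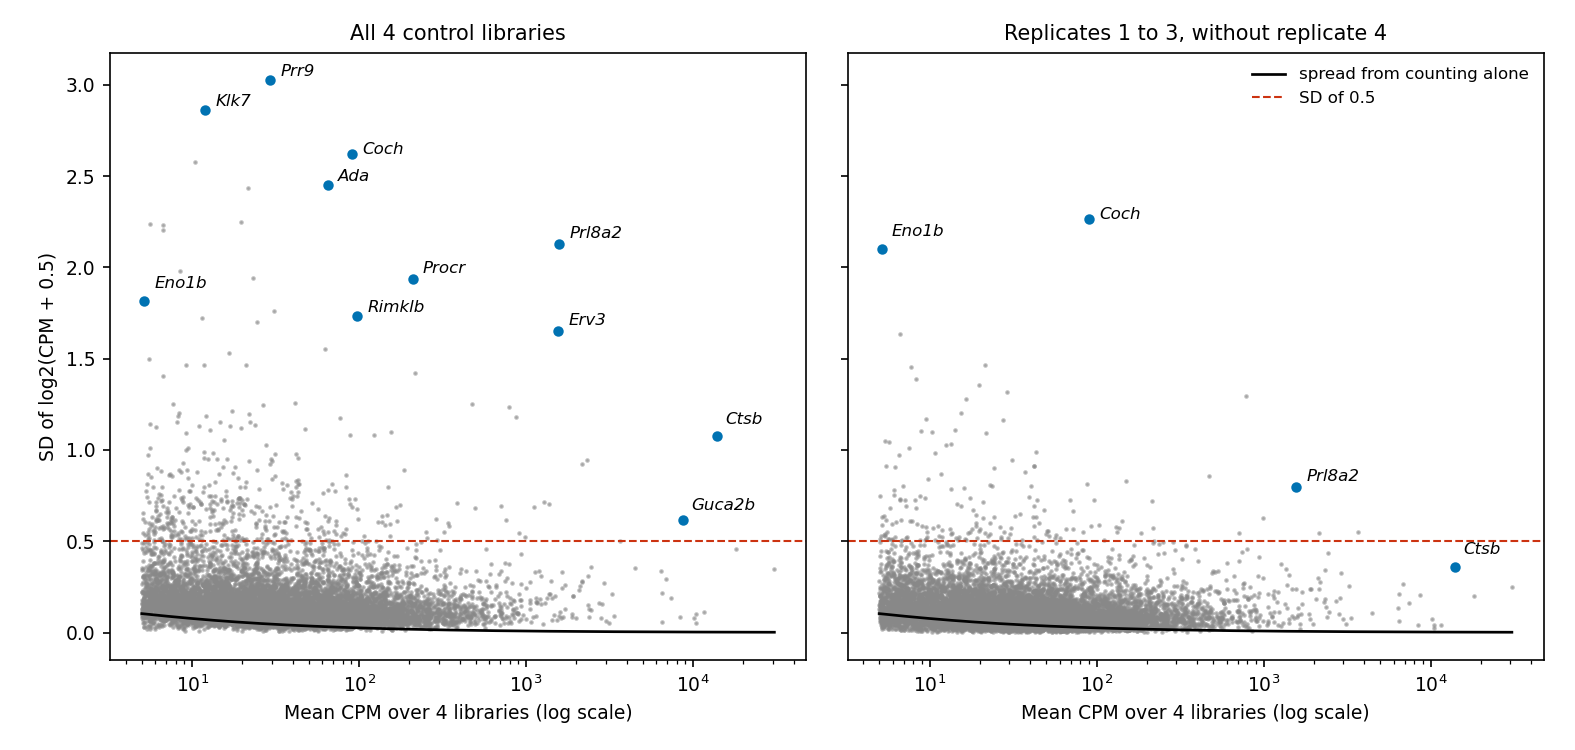
SD of log2(CPM + 0.5) against mean CPM (log axis) for 11530 genes, over all 4 control libraries (left) and over replicates 1 to 3 (right); the black line is the spread from counting alone and the dashed line an SD of 0.5. Most of the genes above the dashed line at left drop below it at right, whereas Coch and Eno1b stay high.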

How the data were processed

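RNA of 4 control libraries was analysed, described from the labels' protocols as TruSeq libraries of total RNA with paired-end reads of 75 bases. The deposited table gives raw counts of reads for each gene as whole numbers, and a Length column in bases. Tools listed in the submitters' processing notes are STAR 2.7.0f, Bowtie2 2.2.5, Subread 1.6.4 with featureCounts, and DESeq2; mm10 and GRCm38 are the builds listed. What each tool did, the annotation, strand use and the treatment of reads with several matches are not stated there, so counts of overlapping genes and close paralogs are uncertain.

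CPM is a count divided by all gene counts of its library, times 1000000, and the level per kilobase divides CPM by Length in kilobases. That length can exceed the transcripts in use, which lowers the level. Spread is the SD of log2(CPM + 0.5) over the 4 libraries, for genes with a mean of at least 5 CPM, beside the SD that Poisson counting gives. No test was made. The scripts were tested on simulated data. TMM (edgeR 4.0.16) and DESeq2 1.42.0 scaling in R 4.3.3, other minimums and leaving out each library were alternatives.

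The genes named are the 15 highest by CPM and per kilobase, up to 3 leaders of each of 70 families, Gja1, Oxtr, Pgr, Plcl2, Ptgs2, Zeb2 and Zeb1 at any level, the 20 most variable at 5 CPM, the 10 steadiest at 50 CPM, and in each marker or group list up to 4 most abundant members, the most variable member and defining markers without a count, except that some genes these rules name are not reported here. Members and lists were chosen with earlier results of these data known. Positions are GENCODE gene positions on GRCm38 for 24379 genes matched by symbol, overlaps of exons were found with bedtools 2.31.1, and promoters are those of RefSeq.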

Additional observations from a re-analysis of the deposited data

Results flagged for a closer look

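For each group of 4 libraries, the gap between the highest or lowest library and its nearest neighbour was set against the whole range with Dixon's 95% limit. Levels were taken as CPM and shares as percent. On the log2 scale low values stand farther apart, and that version was not run, so the balance of high and low flags depends on the scale. Of 240 gene levels and shares examined, 43 (17.9%) were past it, 31 of them in replicate 4, 7 in replicate 1, 5 in replicate 3 and 0 in replicate 2. The 240 include genes given only under other observations below, such as Dnah9, Gbp2b and Mmp10, which were chosen after their values were seen. Chance flags about 1 in 20 such groups, and many of these genes were chosen for their large spread, so the share describes this selection only.

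Replicate 4 was the highest library for most. Among decidual and placental genes these were Prl8a2 at 5232 CPM, Erv3 at 4758 CPM, Prl8a9 at 71.96 CPM, Prl2c5 at 38.1 CPM and Tpbpa at 12.8 CPM. Among genes of differentiated epithelium they were Prr9 at 109 CPM, Klk7 at 46.4 CPM, Sprr2h at 70.04 CPM, Tchh at 99.5 CPM and Tchhl1 at 29.4 CPM. Procr stood at 689 CPM, Rimklb at 308 CPM, Ada at 236 CPM, Aspg at 73.9 CPM, Olr1 at 70.7 CPM, Fgfbp1 at 36.6 CPM, Orm1 at 23.99 CPM, Guca2a at 24.6 CPM and Cryaa at 20.6 CPM. Receptors, channels and enzymes with the same library highest were Kcnj1 at 12.7 CPM, S1pr2 at 43.96 CPM, Pgrmc2 at 76.2 CPM, Cyp11a1 at 26.8 CPM and Top2a at 141 CPM. Adm, adrenomedullin, was also highest there, at 36.4 CPM.

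As shares of counts, replicate 4 was apart for the lists of decidua (1.02%), trophoblast and placenta (0.0139%), cell cycle (0.133%), hypoxia and glycolysis (0.228%) and endothelium (0.107%). Mmp10 was the 1 gene past the limit for its lowest value there, at 4.01 CPM.

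Replicate 1 was the highest for Dnah9 at 18.6 CPM, Gbp2b at 17.6 CPM, Rn45s at 36.6 CPM and Nxf1 at 139 CPM, and the lowest for Cnn1 at 699.7 CPM, Ano6 at 94.3 CPM and Cacna1h at 42.7 CPM. Replicate 3 was the highest for Bgn at 1871 CPM, Csf1r at 291 CPM, P2rx4 at 62.8 CPM, Hoxd10 at 35.4 CPM and Eno1b at 17.7 CPM. The range of Csf1r and of Nxf1 was small, so that a slight gap passed the limit.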

How the results depend on the processing

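The spread between libraries depended most on replicate 4 and on the minimum level. Leaving out each library in turn gave between 165 and 575 genes with an SD of 0.5 or more, against 445, and the lowest count, with the minimum then set on replicates 1 to 3, came without replicate 4. With a minimum of 1 CPM the count was 723, with 20 CPM it was 187 and with no minimum 847, since fewer or more genes were then examined. TMM scaling gave 422, DESeq2 size factors 425 and a pseudocount of 0.1 CPM 470. Of the 20 most variable genes, between 2 and 19 stayed among the top 20 when a library was left out, an alternative chosen after seeing the data, and the 2 were without replicate 4. Ranking by the CV less its counting part shared 18 of the 20, and edgeR's tagwise dispersion 19.

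The other results moved little. Genes at 1 CPM ran from 13773 to 13825 without 1 library, and were 13799 with TMM or DESeq2 scaling and 13330 where every library had to reach 1 CPM. The share of the 10 most abundant genes ran from 12.2 to 13.95% and that of smooth muscle markers from 2.26 to 2.46% without 1 library. Families with the same leader numbered 56 to 60 without 1 library, 57 by CPM and 50 of the 63 with a member at 10 CPM. Leaving out a library can hardly lower that number, since a leader in every library also leads in those that remain. Of 328 named genes with a level, 0 of 656 means under another scaling differed from the main mean by more than its SD, which is wide where replicate 4 is far off. Without 1 library 0 of 1312 did. Leaving out 1 of 4 values cannot move a mean by its SD, so that count was fixed in advance and shows nothing. The alternative total without mitochondrially encoded genes could not be run, as 0 genes in the table carry the name prefix mt- of such genes. No paired analysis was possible because 1 group was described and no test was made. At this depth the counting SD had a median of 0.04 on the log2 scale among genes at 5 CPM and above.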

Other observations

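Some genes varied in ways other than a high replicate 4, and they were chosen after their values were seen. Dnah9, an axonemal dynein, was at 18.6, 0.0314, 0.125 and 0.216 CPM in replicates 1 to 4, and Gbp2b, an interferon-induced GTPase, at 17.6, 0.345, 0.156 and 0.432 CPM, both high in replicate 1 alone. Olfm1, a secreted olfactomedin, was at 1313, 1251, 269 and 316 CPM, and Nxpe3 at 48.9, 36.1, 10.3 and 15.2 CPM, both with replicates 1 and 2 above replicates 3 and 4. Umod, uromodulin, was at 1.77, 1.76, 15.6 and 7.58 CPM and Fgl1 at 6.503, 14.5, 44.8 and 12.9 CPM, each highest in replicate 3.

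The mast cell proteases Cpa3, Mcpt4 and Tpsb2 varied together, at 3.16, 11.9, 14.5 and 5.92 CPM, 2.04, 5.46, 10.3 and 3.92 CPM and 2.07, 5.68, 10.3 and 4.69 CPM. All 3 were highest in replicate 3 and lowest in replicate 1. Their levels lay under those of the macrophage receptor Csf1r in every library on the CPM scale.

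Some genes were lowest in replicate 4, as Ctsb and Guca2b were. The neighbouring metalloproteinases Mmp3, Mmp10 and Mmp13 were at 31.2, 25.9, 32.3 and 5.83 CPM, 21.2, 19.5, 22.6 and 4.01 CPM and 15.6, 19.8, 19.6 and 3.36 CPM, low in that library alone. Cuzd1, a secreted protein of epithelia, was at 3449, 2694, 1646 and 807 CPM and C4bp, a complement regulator, at 13.6, 12.4, 5.45 and 1.85 CPM, both lowest in replicate 4 and next lowest in replicate 3. Sox9, a transcription factor of gland epithelium, was at 9.88, 14.6, 15.5 and 5.06 CPM.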
